A study of Mus musculus with 16 samples.

Results

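The ATG-GGC11 libraries describe the cerebral cortex of mice that were given a short-repeat construct in an AAV, a virus stripped of its own genes and used to deliver others. They are 4 of the 16 libraries of the series and were chosen by the construct code in their titles. All 55359 mouse genes of the deposited table were read in them, and no library of another construct was used. The construct has an ATG start codon before 11 GGC repeats, which encode a short run of glycine. The series was made to study polyG proteins, long glycine chains linked to neuronal intranuclear inclusion disease, and its other constructs are ATG-GGC100, TAG-GGC100 and ATG-GGN100dCT. The labels give no age, strain, sex, serotype, promoter, injection site or time after injection. They also do not state whether each library came from its own animal, so the spread between libraries may be partly technical. No uninjected cortex was analysed here, so the levels are those of an injected cortex that carries the construct.

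The cerebral cortex is a layered sheet in which excitatory neurons release glutamate and a smaller number of inhibitory neurons release GABA. Astrocytes clear transmitter and supply metabolites, oligodendrocytes wrap axons in myelin, and microglia are the resident immune cells. Blood vessels run through the tissue, the meninges cover it, and the striatum and hippocampus lie directly beneath it, so a dissected cortex can hold pieces of each. In a bulk sample the RNA of all these cells is pooled, and fewer cells of a type cannot be told apart from less RNA per cell.

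Replicates 1 to 4 held 16098541, 19130232, 17157931 and 12838296 counts on mouse genes. Levels are given in FPKM, the count of a gene divided by its exonic length and by the library total, so that genes of different length can be set side by side. Means are followed by the SD over the 4 libraries (n = 4). With at least 1 FPKM in each library, 12727 genes were detected, and 13582 genes, 24.5% of all, reached a mean of 1 FPKM. At the other end, 25318 genes had 0 counts in all 4 libraries. Of the detected genes 11461 were protein coding, which is 52.4% of the 21877 protein-coding genes in the table. The 100 genes with the most counts held 20.4 ± 0.679% of a library's counts, and about 1000 genes, between 974 and 1024, held 50% of them. The median detected gene stood at 6.77 FPKM, and 302 genes had a mean of 100 FPKM or more. Across all pairs of libraries the log2(FPKM + 1) values of the detected genes correlated at 0.99 to 0.992 (Pearson r across genes, which are not independent replicates). Their counts differed by 5.5 to 7.01 chi-square units per degree of freedom, well above counting noise, so none of the 4 was a library deposited again. Between 21 and 45 detected genes differed at least 2-fold within a pair.

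**Figure D1:**
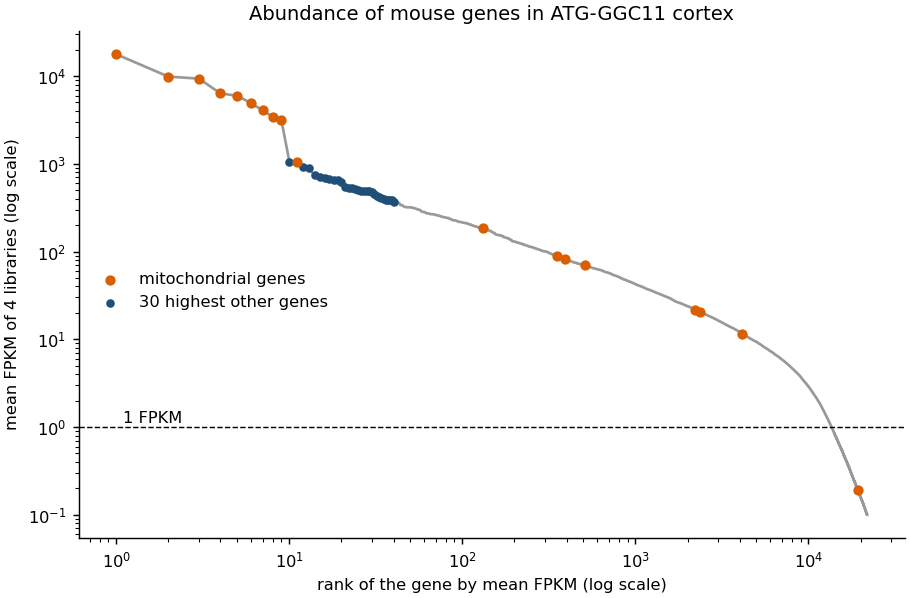
Mean FPKM of each mouse gene with a mean of at least 0.1 FPKM, against its rank, both on log scales. Orange points are mitochondrial genes and blue points the 30 highest other genes; 13582 genes lie at or above the dashed line of 1 FPKM.

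The highest genes outside the mitochondrial chromosome belonged to calcium signalling, peptide secretion, glial secretion and translation. Calm2, which encodes calmodulin, the main calcium sensor of the cell, had 1029, 1045, 1038 and 1128 FPKM in replicates 1 to 4. Calm3, which encodes the same protein, averaged 663 ± 21.1 FPKM. Calml3, a calmodulin-like gene, had no counts, and Calml4 stood at 0.095 ± 0.0311 FPKM. Nrgn, which encodes neurogranin, a postsynaptic protein that binds calmodulin, had 868, 908, 993 and 948 FPKM. Its 4 values lay within a narrow band and made it the second of these genes. Camk2a, the kinase subunit that calmodulin activates at excitatory synapses, averaged 403 ± 27 FPKM, and Camk2n1, a protein inhibitor of that kinase, averaged 623 ± 48.7 FPKM.

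Secreted and glial products stood next to them. Cpe, a carboxypeptidase that matures peptide hormones, had 844, 842, 1007 and 845 FPKM. Cst3, the cysteine protease inhibitor cystatin C, had 672, 604, 864 and 671 FPKM. Apoe, the main lipid carrier of the brain and largely a glial product, had 571, 644, 791 and 619 FPKM. In each of these 3 genes replicate 3 was the highest library. Sparcl1, a secreted astrocyte protein that acts on synapses, averaged 686 ± 53.9 FPKM, and Psap, the precursor of lysosomal activator proteins, 530 ± 26.9 FPKM. Glul, which makes glutamine from the glutamate that astrocytes take up, averaged 493 ± 26.3 FPKM. Kif5a, a motor protein of axonal transport, had 609.5, 509, 530 and 472 FPKM and was highest in replicate 1.

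Genes of general cell upkeep filled much of the rest of the 30 highest. The translation factors Eef1a1 and Eef1a2 averaged 657 ± 19 and 433 ± 10.2 FPKM, and the ribosomal proteins Rplp1 and Rps15 averaged 514 ± 50 and 450 ± 34.9 FPKM. Eef1a2 is the form of the factor that neurons and muscle use. The chaperone gene Hsp90ab1 averaged 489 ± 24.8 FPKM, the glycolytic enzyme Aldoa 489 ± 19.4 FPKM, the iron store Fth1 538 ± 63 FPKM and the sodium pump subunit Atp1b1 480 ± 19.8 FPKM. Snap25, the membrane fusion protein of synaptic vesicles, had 389, 387, 365 and 409 FPKM.

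Promoters of these genes differed from those of silent genes in CpG content, the dinucleotide that gathers in the CpG islands of broadly used promoters. Sequences were taken from RefSeq for GRCm38.p6 as windows of 250 bases before to 50 bases after the start, for 9174 of the 11448 detected coding genes outside the mitochondrial chromosome. The ratio of observed to expected CpG had a median of 0.138 over coding genes with 0 counts, 0.368 over those under 1 FPKM, 0.779 from 1 to 10 FPKM, 0.832 from 10 to 100 FPKM and 0.773 at 100 FPKM or more. A ratio of at least 0.6 was found in 3.72% of the silent genes and 79.5% of the highest class. The letters TATAAA, on either strand, ran the other way at first, in 31.5% of the silent class, 16% under 1 FPKM, 8.22% from 1 to 10 FPKM and 8.12% from 10 to 100 FPKM. They were again more frequent, at 13.7%, among the 205 promoters at 100 FPKM or more. The 100 bases before the start are given for 3 of the highest genes and for 2 liver genes with 0 counts, with each CG in capitals. Nrgn lies at chr9:37552746-37552845 (minus strand), Calm3 at chr7:16924033-16924132 (minus), Eef1a1 at chr9:78481725-78481824 (minus), Fgb at chr3:83049864-83049963 (minus) and Ahsg at chr16:22891915-22892014 (plus).
Nrgn: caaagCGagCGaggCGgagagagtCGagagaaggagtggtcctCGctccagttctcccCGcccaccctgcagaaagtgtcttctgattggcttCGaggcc
Calm3: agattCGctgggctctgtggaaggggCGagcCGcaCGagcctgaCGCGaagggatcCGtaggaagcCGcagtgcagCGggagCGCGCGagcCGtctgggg
Eef1a1: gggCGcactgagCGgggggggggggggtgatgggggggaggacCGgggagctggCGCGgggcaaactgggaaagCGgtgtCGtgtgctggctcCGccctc
Fgb: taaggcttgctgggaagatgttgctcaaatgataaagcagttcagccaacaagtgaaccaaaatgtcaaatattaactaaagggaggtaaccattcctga
Ahsg: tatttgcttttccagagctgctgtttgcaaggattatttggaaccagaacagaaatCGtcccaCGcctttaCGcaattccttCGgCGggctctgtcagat
These stretches hold 7, 13, 8, 0 and 5 CG in the order given, and the full windows have ratios of 0.709 for Nrgn, 1.19 for Calm3, 0.697 for Eef1a1, 0.311 for Fgb and 0.332 for Ahsg. Ahsg shows that a silent gene can carry several CG just before its start, and the classes overlap.

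Genes of the mitochondrial chromosome took 8.83%, 7.67%, 8.41% and 7.5% of counts in replicates 1 to 4, a mean of 8.1 ± 0.627%. The exact 95% binomial intervals, which cover counting error only, ran from 8.82% to 8.84% in replicate 1 and from 7.49% to 7.52% in replicate 4. The libraries therefore differed by far more than counting error. The 13 protein genes, which encode subunits of the respiratory chain, held 6.71 ± 0.612% of counts, and both ribosomal RNA genes together 1.38 ± 0.047%. The highest gene of the whole table was mt-Co1, a cytochrome c oxidase subunit, at 19510, 16734, 18133 and 16415 FPKM. It was followed by mt-Cytb of complex III at 9849 ± 789 FPKM and by mt-Nd1 of complex I at 9343 ± 1047 FPKM.

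The 13 protein genes fell into separate ranges of level although most of them are cut from a shared polycistronic transcript. The highest 7 genes, namely mt-Co1, mt-Cytb, mt-Nd1, mt-Nd2, mt-Nd4, mt-Nd5 and mt-Nd6, averaged 3127 FPKM or more. The others averaged 184 FPKM or less. Those were mt-Co2 at 184 ± 37.5 FPKM, mt-Atp6 at 88 ± 20.9 FPKM, mt-Co3 at 81.5 ± 19.2 FPKM, mt-Atp8 at 69.5 ± 25.4 FPKM, mt-Nd4l at 21.8 ± 6.13 FPKM and mt-Nd3 at 20.7 ± 6.19 FPKM. On chromosome 1 the table lists a row of 6 genes between positions 24651488 and 24655278, in the coordinates of the table, whose sequence is a nuclear copy of mitochondrial DNA. In the GENCODE vM21 transcripts, mt-Co2 was identical to Gm28661 over 681 of its 684 bases and mt-Co3 to Gm28437 over 783 of 784. Likewise mt-Atp6 was identical to Gm10925 over 678 of 681 bases, mt-Nd3 to Gm28438 over 342 of 348, and mt-Nd4l to Gm10222 over 294 of 297. In all, 5 of the low genes had a copy identical over at least 98.3% of their length. The remaining one, mt-Atp8, shared 43 of its 204 bases with Gm10925. Of the high genes, mt-Co1 shared 482 of 1545 bases with Gm29216. None of the others shared more than 2.12% of its length with a listed copy. Only transcripts of the 6 listed genes were compared. Sequence between or beside them, such as that between Gm10925 and Gm28661, was not covered, so further copied bases may be missed. How reads that match a gene and its copy equally were counted is not given in the sources used here, and its part in the low values was not tested. Summed over the 4 libraries, mt-Co2 had 8235 counts beside 5593 on Gm28661, and mt-Nd3 had 476 beside 1037 on Gm28438. mt-Co1 had 1786220 counts.

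**Figure D2:**
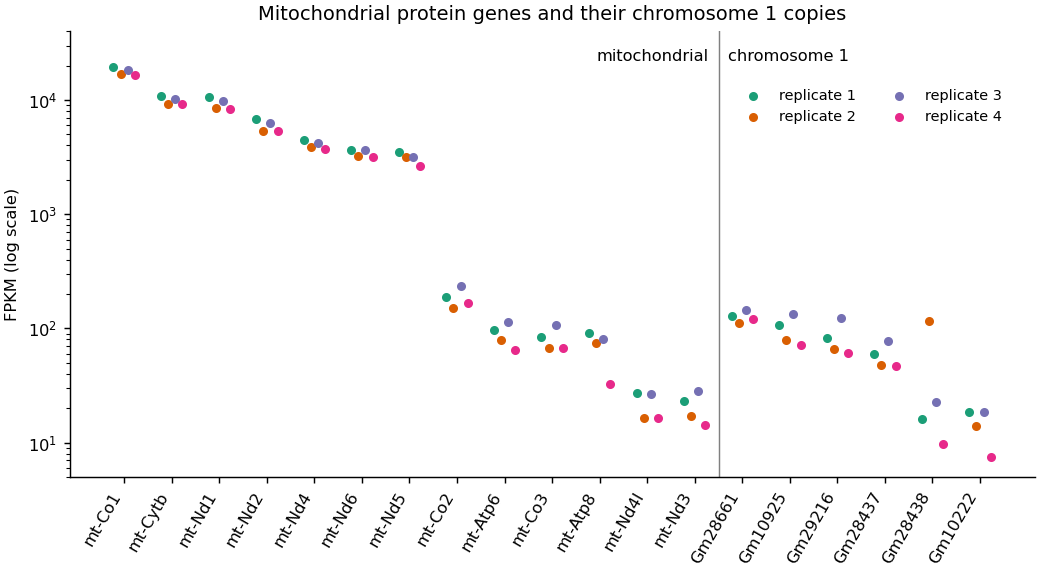
FPKM of each mitochondrial protein gene (left) and of each chromosome 1 copy (right) on a log scale, a point per library. The 7 highest genes lie at 2625 FPKM or above in each library, the 6 lower genes at 236 FPKM or below and the copies at 145.8 FPKM or below; mt-Co2 lies above every copy, and Gm28438 in replicate 2 stands apart at 116.5 FPKM.

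Gm28438, the copy of mt-Nd3, had the highest excess CV among genes with a mean of at least 100 counts. Excess CV is the coefficient of variation of scaled counts over the 4 libraries after the part due to counting has been subtracted. It had 16.2, 116.5, 22.8 and 9.71 FPKM in replicates 1 to 4, so that replicate 2 stood far above the others. Its mitochondrial counterpart did not follow, since mt-Nd3 had 23.2, 17.1, 28.1 and 14.3 FPKM. The other copies were highest in replicate 3, or in replicates 1 and 3 for Gm10222. Among the mitochondrial tRNA genes mt-Tp had 1170, 974, 1155 and 918 FPKM, whereas mt-Tf and mt-Tl1 had no counts. mt-Tp and mt-Nd6 lie on the strand opposite to most genes of that chromosome, and the library protocol names no step that marks the strand, so their counts cannot be separated from reads of the other strand.

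Some nuclear genes with processed pseudogenes were listed at low levels. Gapdh, a glycolytic enzyme that is often used as a reference, was listed at 3.69 ± 0.337 FPKM, beside 220 ± 9.84 FPKM for Tpi1 and 227 ± 6.33 FPKM for Pkm of the same pathway. Ppia, another common reference gene, stood at 3.17 ± 0.0386 FPKM and Rps6 of the small ribosomal subunit at 7.16 ± 1.01 FPKM. Tpt1 stood at 17.1 ± 2.47 FPKM, and its pseudogene Tpt1-ps3 at 149 ± 12.9 FPKM. Over 75 ribosomal protein genes the values ran from 0.895 to 450 FPKM with a median of 26.8 FPKM, and 20 of them stood under 10 FPKM. The 59 with a pseudogene named after them had a median of 23.5 FPKM, and the 16 without one had 52.9 FPKM. A part of shared sequence in these low values was not tested, and levels of such genes are uncertain one by one. Of other reference genes, Actb averaged 271 ± 8.85 FPKM, Ywhaz 178 ± 11 FPKM, Hprt 110 ± 5.07 FPKM and Tbp 2.18 ± 0.122 FPKM.

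Genes that do not encode protein held few of the counts. Protein-coding genes took 96.4 ± 0.068%, both mitochondrial ribosomal RNA genes the 1.38% given above and long intergenic RNAs 0.895 ± 0.0356%. The highest of them outside the mitochondrial chromosome was Rn18s, the 18S ribosomal RNA, at 418 ± 48.2 FPKM, or 0.0773 ± 0.00891% of counts after poly(A) selection. Among RNAs typed as long intergenic, Norad, which binds PUMILIO proteins, averaged 218 ± 15.5 FPKM and the imprinted Meg3 163 ± 8.93 FPKM. Meg3 had the most counts of these, at 48025 per library. Snhg11, at 206.5 ± 11.4 FPKM, is typed as protein coding in GENCODE vM21 and was not counted among them. The remaining 7 of the 10 highest non-coding genes outside the mitochondrial chromosome were pseudogenes, Gm10736, Gm10123, Gm9800, Tpt1-ps3, Gm14303, Gm28661 and Gm14539. Gm10736 shows how length enters FPKM, since its 273 FPKM rest on 349.5 counts per library over 78 bases.

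Neuronal marker genes were high. All 12 pan-neuronal genes passed 1 FPKM, with a median of 178.5 FPKM, from Snap25 at 388 ± 17.9 to Rbfox3, a nuclear splicing factor of neurons, at 50.7 ± 0.227 FPKM. All 10 excitatory neuron genes passed as well. Slc17a7, the vesicular glutamate transporter of cortical neurons, averaged 201 ± 15.2 FPKM, and Slc17a6, the transporter of subcortical neurons, 6.93 ± 2.18 FPKM. All 12 inhibitory neuron genes passed with a median of 5.77 FPKM. Their sum was 188, 199, 188 and 221 FPKM in replicates 1 to 4, with 7 genes highest in replicate 4 and 5 in replicate 2. The GABA-synthesizing enzymes Gad1 and Gad2 averaged 54 ± 4.22 and 32.9 ± 6.26 FPKM, and Slc32a1, which loads GABA into vesicles, 28.4 ± 3.27 FPKM. For comparison, the share of all mouse genes with a mean of at least 1 FPKM is the 24.5% given above. Of protein-coding genes alone, 52.4% had at least 1 FPKM in each library, which is a stricter rule. A list of coding genes that passed at about that share does not stand out.

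The highest genes of the interneuron lists were peptide precursors or calcium buffers. All 7 genes of the Pvalb class and all 7 of the Lamp5 and Sncg classes passed 1 FPKM. Of the Vip class 6 of 7 passed, and of the Sst class 4 of 7. Sst, the precursor of somatostatin, averaged 265 ± 17.4 FPKM and Npy, the precursor of neuropeptide Y, 108 ± 13.5 FPKM. Cck averaged 191 ± 10.2 FPKM, although excitatory neurons of the cortex also make this peptide. Pvalb, the calcium buffer of fast-spiking cells, averaged 64.5 ± 8.64 FPKM, Lamp5 81.4 ± 2.23 FPKM and Vip 14.8 ± 2.04 FPKM. The highest gene of the Vip class was not Vip but Penk, at 109 ± 53.4 FPKM, which is also on the striatal list. The class summed to 106, 123, 133 and 223 FPKM in replicates 1 to 4. Rare classes were near the limit. Chodl, which marks long-range Sst cells, stood at 0.253 ± 0.0877 FPKM and Chat, the acetylcholine enzyme, at 0.51 ± 0.118 FPKM.

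Glial lists passed in full. The 14 astrocyte genes had a median of 37.8 FPKM, led by Glul, Aldoc at 251 ± 13.3 FPKM and the glutamate transporter Slc1a2 at 246 ± 17.9 FPKM. Slco1c1, a thyroid hormone transporter, was the lowest at 8.61 ± 0.933 FPKM. The 12 oligodendrocyte genes had a median of 52.2 FPKM, with the myelin gene Mbp at 320 ± 51.7 FPKM. Their sum was 1234, 834, 1092 and 1143 FPKM, lowest in replicate 2, and 9 of the 12 genes were highest in replicate 1. The 10 precursor genes had a median of 8.82 FPKM, with Pdgfra, the receptor that defines these cells, at 5.29 ± 0.276 FPKM.

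All 15 microglia genes passed 1 FPKM, with a median of 13.5 FPKM. Ctss, a lysosomal protease, led at 50.5 ± 3.3 FPKM, and the complement gene C1qa averaged 41.8 ± 7.02 FPKM. The homeostatic receptor P2ry12 averaged 16.3 ± 0.957 FPKM and Trem2, the lipid receptor, was the lowest at 2.4 ± 0.41 FPKM. Replicate 3 was highest for 11 of the 15 genes. Among genes of disease-associated microglia, 7 of 12 passed, led by Apoe, Ctsd at 99.1 ± 8.39 FPKM and Cd9 at 15.7 ± 0.985 FPKM, which other cells also make. The genes that are close to specific for that state were low, with Clec7a at 0.075 ± 0.0733, Itgax at 0.0575 ± 0.035, Cst7 at 0.113 ± 0.067 and Gpnmb at 0.412 ± 0.107 FPKM. Interferon response genes passed in 5 of 12 cases, led by Ifi27 at 13.1 ± 1.7 FPKM, and Cxcl10 stood at 0.0475 ± 0.0236 FPKM. Of the genes linked to reactive astrocytes 6 of 12 passed, from Gfap at 42.8 ± 9.47 FPKM down to Lcn2 at 0.233 ± 0.367 FPKM and Steap4 at 0.075 ± 0.042 FPKM.

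Vascular genes were lower but present. All 12 endothelial genes passed with a median of 5.74 FPKM, with the tight junction gene Cldn5 at 10.1 ± 1.55 FPKM, and 9 of them were highest in replicate 3. Of 10 mural cell genes 7 passed, led by Vtn at 21.8 ± 4.25 FPKM. None of the 8 border macrophage genes reached 1 FPKM, and Pf4 was the highest at 0.703 ± 0.459 FPKM. Of 13 T cell, B cell and granulocyte genes only Cd4 passed, at 1.37, 1.15, 1.5 and 2.7 FPKM, whereas the T cell receptor chain Cd3e stood at 0.01 ± 0.02 FPKM. The granulocyte gene Ly6g had no counts in 65225000, which allows up to 0.046 CPM (counts scaled to a common library total; 3 counts over the group). Of 12 hepatocyte genes only Ttr, which the choroid plexus also makes, passed at 3.31 ± 0.958 FPKM, and 4 genes had no counts. Ependymal and choroid plexus genes passed in 5 of 12 cases with Ttr as the highest. Of 10 cell cycle genes 4 passed, and 2 that mark dividing cells were low, Mki67 at 0.17 ± 0.0753 FPKM and Top2a at 0.15 ± 0.0787 FPKM.

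**Figure D3:**
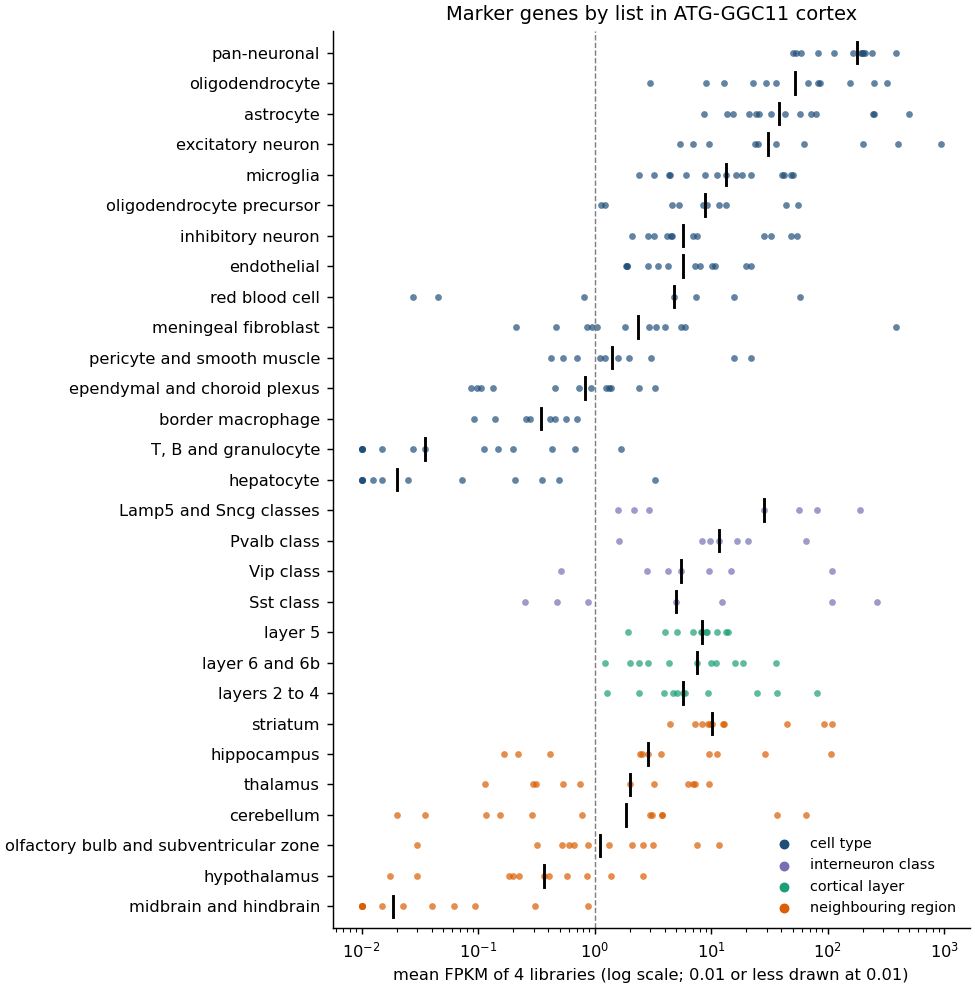
Mean FPKM of each marker gene (points) and the median of its list (black bars) on a log scale, for cell types, interneuron classes, cortical layers and neighbouring regions. Pan-neuronal genes have the highest median at 178.5 FPKM, and midbrain and hindbrain genes the lowest; 23 of 29 lists have a median of at least 1 FPKM.

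Layer genes of the whole cortical depth were found. The medians were 5.71 FPKM for layers 2 to 4, 8.28 FPKM for layer 5 and 7.53 FPKM for layer 6 and 6b, and all 11 genes of each list passed 1 FPKM. Upper-layer cells were marked by Cux2 at 9.32 ± 0.78 FPKM and Rorb at 5.05 ± 0.515 FPKM. The layer 5 regulators Bcl11b and Fezf2 averaged 11.1 ± 1.99 and 9.05 ± 1.34 FPKM, although the striatum also uses Bcl11b. The deep-layer regulator Tle4 averaged 9.99 ± 0.596 FPKM, and Ccn2, a marker of layer 6b, 11 ± 2.19 FPKM.

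Genes of neighbouring regions differed widely in level. All 11 striatal genes passed 1 FPKM with a median of 10.1 FPKM. Of 11 hippocampal genes 8 passed, but the granule cell genes Iyd and Dsp stood at 0.168 ± 0.138 and 0.22 ± 0.38 FPKM. Of 11 thalamic genes 6 passed, while Tcf7l2 and Gbx2, which define thalamic neurons, stood at 0.75 ± 0.291 and 0.115 ± 0.108 FPKM. Of 12 genes of the olfactory bulb and subventricular zone 6 passed, with a median of 1.1 FPKM. Of 12 cerebellar genes 6 passed, with a median of 1.88 FPKM, among them Pvalb and Calb1, which the cortex also uses. Gabra6, the granule cell receptor of the cerebellum, stood at 0.02 ± 0.0283 FPKM. Of 11 hypothalamic genes 2 passed, and the peptide genes included Hcrt at 0.0175 ± 0.035 and Pmch at 0.198 ± 0.16 FPKM. None of 12 midbrain and hindbrain genes reached 1 FPKM. Th, which makes catecholamines, was the highest of those at 0.877 ± 0.294 FPKM, and Hoxa5, Hoxb5 and Pitx3 had no counts.

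By list median, the AMPA receptor genes stood at 29.7 FPKM, the NMDA receptor genes at 10.1 FPKM, the metabotropic ones at 8.05 FPKM and the kainate and delta ones at 6.46 FPKM. Gria1 averaged 61.7 ± 6.68 FPKM and Gria2, the subunit that blocks calcium entry, 49.7 ± 4.23 FPKM, before Gria3 at 29.7 ± 1.97 and Gria4 at 20.8 ± 1.55 FPKM. Their auxiliary protein Cnih2 was higher than each at 116 ± 9.22 FPKM. Of the NMDA receptor, the obligate subunit Grin1 averaged 37.4 ± 0.791 FPKM, the late subunit Grin2a 11.1 ± 1.23 FPKM and Grin2b 14.8 ± 0.903 FPKM. Grik5 led the kainate receptors at 38.9 ± 1.78 FPKM and Grm5 the metabotropic ones at 22.1 ± 1.76 FPKM. Grm6, a receptor of the retina, had no counts.

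For inhibition, the GABA-A subunit gene Gabra3 averaged 43.6 ± 4.52 FPKM and Gabrd, the extrasynaptic subunit, 23.8 ± 2.31 FPKM. Both GABA-B subunits were high, Gabbr1 at 95.7 ± 2 and Gabbr2 at 49.6 ± 4.28 FPKM. Of 25 monoamine receptor genes 20 passed 1 FPKM, led by the histamine autoreceptor Hrh3 at 27.5 ± 3.28 FPKM. Of 12 monoamine synthesis and transport genes only Slc18a2, the vesicular transporter, passed at 1.55 ± 0.0946 FPKM. The serotonin transporter Slc6a4 and the norepinephrine transporter Slc6a2 stood at 0.0075 ± 0.00957 and 0.0025 ± 0.005 FPKM.

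Presynaptic and cytoskeletal genes were high. All 20 release genes passed, with a median of 144.5 FPKM. Their median excess CV of 4.89% was near that of all genes. This was 5.28% with a mean of at least 100 counts and 4.66% with at least 1000. Vamp2 averaged 283 ± 11.5 FPKM, Cplx1 280 ± 12.9 FPKM, and Pclo, a large scaffold, was the lowest at 12.3 ± 1.03 FPKM. Tubb4a led the tubulins at 286 ± 12.7 FPKM before Tuba1a at 261 ± 8.39 FPKM. The neurofilament genes Nefl, Nefm and Nefh averaged 114 ± 1.6, 53.6 ± 1.87 and 22.5 ± 2.98 FPKM. Of ion channel genes, the sodium channel pore subunit Scn2a averaged 24.2 ± 1.97 FPKM. Of potassium channels Kcnj4 led at 58.4 ± 6.07 FPKM, and Hcn2, which carries the pacemaker current, averaged 44.6 ± 2.29 FPKM. The circadian clock genes had a median of 8.58 FPKM, with Per1 at 24.9 ± 2.33 and Arntl at 4.47 ± 0.348 FPKM. None of the 13 had an excess CV of at least 25%, against 2.11% of all genes with at least 100 counts. Their median excess CV was 5.79%.

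Neuropeptide precursor genes spanned a wide range, and 23 of 28 passed 1 FPKM. Behind Sst came Chgb, a granin of secretory granules, at 194 ± 7.93 FPKM, then Cck, Penk and Npy. Penk had 74.5, 79.8, 92.9 and 188 FPKM in replicates 1 to 4, so its place rests on replicate 4. Of the 19 precursor genes with at least 100 counts 6 had an excess CV of at least 25%, against 2.11% of all such genes. Without replicate 4 it was 1. Vgf averaged 99.7 ± 7.62 FPKM and Scg2 98.8 ± 19.7 FPKM, whereas Oxt and Gal stood at 0.223 ± 0.215 and 0.182 ± 0.0954 FPKM. Neuropeptide receptors were lower than the peptides, with a median of 4.33 FPKM against 7.06 FPKM for the precursors. Cckbr, the brain receptor of Cck, averaged 20.2 ± 2.09 FPKM, and Oprm1, the mu opioid receptor, stood at 0.113 ± 0.0499 FPKM.

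The cAMP response element (CRE), the letters TGACGTCA, is bound by CREB, a factor that calcium and cAMP activate in neurons. It reads the same on both strands and contains the shorter TGACG, which was also searched on both strands. Among all 27025 symbols with a promoter window 2.03% held TGACGTCA and 23% held TGACG. Of the 23 neuropeptide precursor genes with a window 4 held the full letters, namely Sst, Scg2, Chgb and Cartpt, and 14 held TGACG. Their surroundings are shown with the motif in capitals, since they carry the letters in genes as high as Sst and as low as Cartpt at 6.19 ± 2.34 FPKM. The stretches lie at chr16:23890855-23890922 (Sst, minus strand), chr1:79440057-79440124 (Scg2, minus), chr2:132781540-132781607 (Chgb, plus) and chr13:99900758-99900825 (Cartpt, minus) of GRCm38.p6.
Sst: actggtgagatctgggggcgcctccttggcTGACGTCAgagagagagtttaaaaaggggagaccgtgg
Scg2: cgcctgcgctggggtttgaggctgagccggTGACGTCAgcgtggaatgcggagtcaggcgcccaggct
Chgb: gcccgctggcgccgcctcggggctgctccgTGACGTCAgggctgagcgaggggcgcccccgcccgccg
Cartpt: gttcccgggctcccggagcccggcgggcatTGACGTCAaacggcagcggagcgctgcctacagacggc
The first base of the motif lay 48, 68, 72 and 112 bases before the start in this order. By expression class, TGACGTCA was found in 0.762% of silent coding genes, 1.7% of those under 1 FPKM, 3.27% from 1 to 10 FPKM, 3.91% from 10 to 100 FPKM and 8.78% at 100 FPKM or more. In the same order TGACG was found in 9.305%, 19.2%, 33.45%, 40.4% and 40%. The letters contain a CG, and CpG content rose over the same classes apart from the highest. A match is a description of letters and not a binding site.

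Immediate early genes are switched on within minutes of neuronal activity, and many are CREB targets. All 18 passed 1 FPKM with a median of 16.2 FPKM. Arc, a synaptic plasticity protein, averaged 153 ± 22 FPKM, Egr1, a zinc finger factor, 118 ± 14 FPKM and Nr4a1, a nuclear receptor, 61.8 ± 9.11 FPKM. Fosb was the lowest at 6.18 ± 0.787 FPKM. The summed list had 695, 699, 643 and 511 FPKM in replicates 1 to 4, and 15 of the 18 genes were lowest in replicate 4. Fos had 40.3, 41.1, 29.1 and 22.95 FPKM. Btg2, an inhibitor of proliferation, had 16.1, 13.85, 10.4 and 7.07 FPKM. Ccn1, a matrix protein, had 10.7, 9.22, 8.23 and 4.28 FPKM. In each, replicates 1 and 2 were higher than replicates 3 and 4. Of the 18 genes 5 had an excess CV of at least 25%, namely Fos, Btg2, Ccn1, Egr2 and Ier2, against 2.11% of the 11452 genes with a mean of at least 100 counts. Without replicate 4 none of them did. Time since handling or death is not given for the mice, and its part was not tested.

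Of the 14 immediate early genes with a promoter window 12 held TGACG. The share was 23% over all symbols and 33.45% to 40.4% in the classes of coding genes above 1 FPKM. Dusp1 and Btg2 held the full TGACGTCA, which 2.03% of all symbols held. They are shown with Fos, the classical CREB target, and Npas4, a factor of inhibitory synapse development, whose windows hold the shorter form, so that both forms can be compared. The stretches lie at chr17:26508578-26508645 (Dusp1, minus strand), chr1:134079284-134079351 (Btg2, minus), chr12:85473794-85473858 (Fos, plus) and chr19:4990106-4990170 (Npas4, minus).
Dusp1: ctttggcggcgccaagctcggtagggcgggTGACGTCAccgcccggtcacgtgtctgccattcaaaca
Btg2: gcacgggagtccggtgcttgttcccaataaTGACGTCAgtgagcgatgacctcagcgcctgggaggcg
Fos: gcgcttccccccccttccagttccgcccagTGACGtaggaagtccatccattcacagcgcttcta
Npas4: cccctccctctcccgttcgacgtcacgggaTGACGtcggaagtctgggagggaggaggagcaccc
The motif in capitals began 143 bases before the start in Dusp1, 166 in Btg2, 66 in Fos and 169 in Npas4. A further TGACG match lay 129 bases before the start in Fos and, on the other strand, 179 bases before it in Npas4.

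Variability between the libraries was small for most genes. Over the 11452 genes with a mean of at least 100 counts the median excess CV was 5.28%, and 80.1% of genes stayed under 10%. An excess CV of at least 25% was reached by 242 genes, which is the 2.11% given above. Among genes with at least 1000 counts the lowest CV was that of Tox4, a chromatin protein, at 10.7, 10.7, 10.7 and 10.8 FPKM. Among the next lowest were Srpk1, Ubqln1, Ilrun, Tmem9b, Atxn2l, Glud1, Amigo1 and Dstn, all with a CV of at most 0.848%. These are spread over RNA processing, protein turnover, metabolism and cell adhesion. Tox4 and these genes had an excess CV of 0, as did 2009 genes, or 17.5% of the 11452. Their spread did not exceed counting noise, so the order among them has no meaning. Of the commonly used reference genes, Actb had an excess CV of 2.63%, Hprt of 3.69% and Ywhaz of 5.8%, and the list of 12 had a median of 5.97%.

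**Figure D4:**
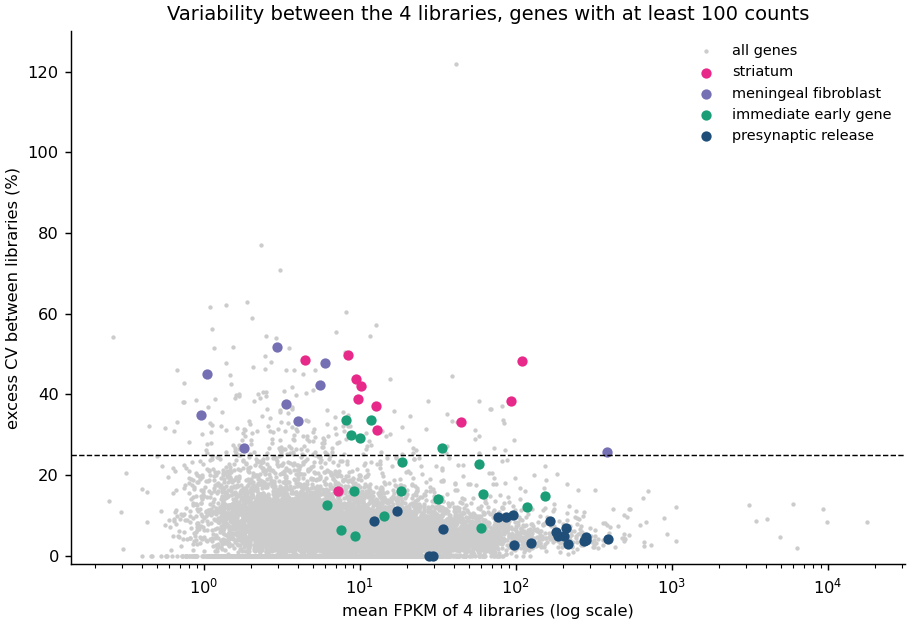
Excess CV between the 4 libraries (percent) against mean FPKM (log scale) for the 11452 genes with at least 100 counts per library on average, with 4 gene lists in colour. Of the striatal genes 10 of 11 and of the meningeal fibroblast genes all 9 with enough counts lie above the dashed line at 25%, while the 20 presynaptic release genes lie under it.

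Many of the striatal genes were variable. The striatum is built of projection neurons that carry either dopamine receptor D1 or D2 and that pass inhibition out of the basal ganglia. All 11 listed genes were highest in replicate 4, and 10 of 11 had an excess CV of at least 25%. Penk, the enkephalin precursor of D2 neurons, had 74.5, 79.8, 92.9 and 188 FPKM in replicates 1 to 4. Ppp1r1b, a phosphatase inhibitor under dopamine control, had 69.5, 69.6, 85.5 and 145 FPKM. In each the other 3 libraries lay below replicate 4.

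Receptors were highest in replicate 4 as well. Drd1 had 7.21, 8.05, 8.08 and 15.5 FPKM, and marks the direct pathway. Drd2 had 6.15, 6.9, 9.08 and 15.4 FPKM, and marks the indirect pathway together with the adenosine receptor Adora2a, which had 7.77, 6.95, 9.33 and 16.5 FPKM. Genes of both pathways were thus highest in the same library. Tac1, the substance P precursor of D1 neurons and not itself on the list, had 8.06, 8.98, 8.3 and 21.4 FPKM, and Pdyn, the dynorphin precursor, 10.2, 10.4, 10.1 and 19.8 FPKM. Rgs9, a striatal regulator of G proteins, had 6.31, 5.3, 7.24 and 14.6 FPKM, and Gpr6 had 3.9, 2.58, 3.65 and 7.68 FPKM. Foxp1, which the cortex also expresses, was the exception with an excess CV under 25%. The list summed to 236, 243, 287 and 517 FPKM. Without replicate 4 none of the 11 genes had an excess CV of at least 25%.

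Genes outside the list were highest in replicate 4 too, the first 3 of them among the 20 genes with the highest excess CV. Rxrg, a retinoid receptor, had 4.89, 5.37, 7.92 and 13.9 FPKM, Six3, a forebrain homeobox gene, 0.89, 0.97, 0.96 and 2.69 FPKM, and Slc5a7, the choline transporter of cholinergic cells, 0.67, 0.72, 1.27 and 2 FPKM. Cd4, the one gene above 1 FPKM on the T cell, B cell and granulocyte list, was also highest there. Scn4b, a sodium channel subunit, had 35.5, 29.2, 40.1 and 61.7 FPKM, and the serotonin receptor Htr1b 3.09, 2.68, 2.71 and 5.33 FPKM. Whether more striatum was dissected with replicate 4 was not tested. Depth differed as well, replicate 4 having the lowest total at 12838296 counts.

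Meningeal fibroblast genes followed another order of the libraries. These cells make the collagen-rich coverings of the brain. All 9 genes with at least 100 counts had an excess CV of at least 25%, and of the 8 genes above 1 FPKM 7 were highest in replicate 3 and 7 lowest in replicate 4. Ptgds, which makes prostaglandin D2 and is among the 30 highest genes of the cortex, had 335, 427, 502 and 278 FPKM. Oligodendrocytes make Ptgds as well. Fmod, a collagen-binding proteoglycan, had 4.64, 6.62, 9.57 and 2.92 FPKM, and Ogn 4.33, 6.78, 8.2 and 2.91 FPKM. Dcn, the fibroblast proteoglycan decorin, had 2.62, 4.03, 4.16 and 0.89 FPKM. Replicates 2 and 3 were the upper libraries for each of these and replicate 4 the lowest. Without replicate 4, 6 of the genes still passed 25%, and without replicate 3, 7.

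Replicate 3 was also highest in blood and in hormone-responsive genes. Hbb-bs, a beta globin of red blood cells, had 54.9, 43.7, 90.5 and 43 FPKM, and Hba-a1, an alpha globin, 10.7, 11.1, 25.6 and 15.2 FPKM. Globin genes share sequence with near copies and are uncertain one by one. Lyz2, the lysozyme of macrophages and granulocytes, had 5.99, 5.48, 12.8 and 3.91 FPKM. Of 11 glucocorticoid response genes above 1 FPKM 8 were highest in replicate 3. The metal-binding metallothioneins Mt1 and Mt2 had 78.7, 68.6, 118.5 and 75.6 FPKM and 52.6, 55.6, 105.7 and 59.7 FPKM. Nfkbia, an inhibitor of NF-kappaB, had 10.6, 10.4, 16.3 and 8.66 FPKM. Fkbp5, a classical glucocorticoid target, was even at 3.23 ± 0.289 FPKM. Without replicate 3 none of the glucocorticoid or red blood cell genes had an excess CV of at least 25%, against 3 and 2 with it.

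Replicate 1 led a group of hippocampal genes and some others. Prox1, the factor that defines dentate granule cells, had 4.28, 1.94, 1.81 and 1.83 FPKM. Fibcd1, a marker of CA1 neurons, had 5.22, 2.24, 2.17 and 1.92 FPKM. The other 3 libraries were nearly level for both genes. Shisa6, an AMPA receptor partner, had 4.49, 2.1, 1.89 and 1.51 FPKM, and the predicted gene Gm2115 6.12, 2.13, 3.15 and 2.61 FPKM. Of the 8 hippocampal genes with at least 100 counts 3 had an excess CV of at least 25%, the last being Zbtb20 at 3.7, 1.68, 1.94 and 2.79 FPKM, and without replicate 1 it was 1. Tshz2, a zinc finger gene of deep layers and of retrosplenial cortex, had 14.3, 6.41, 9.19 and 2.68 FPKM, and Cabp7, a calcium-binding protein, 22.6, 8.17, 13.6 and 6.58 FPKM. Both genes were highest in replicate 1 and lowest in replicate 4.

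Layer and area genes varied in several directions. Rprm, a layer 6 gene, had 28, 47.8, 41 and 28.1 FPKM, highest in replicates 2 and 3. Syt6, of layer 6, had 3.69, 3.14, 3.22 and 7.31 FPKM, highest in replicate 4. Nr4a2, a layer 6b and claustrum factor, had 19.5, 22.7, 22.4 and 10 FPKM, lowest in replicate 4. Otof, of the upper layers, had 2.28, 5.75, 4.63 and 3.01 FPKM. Of the layer 6 and 6b list 4 of 10 genes with enough counts had an excess CV of at least 25%, against 1 of 10 for layers 2 to 4 and 1 of 10 for layer 5. Without replicate 4 it was 1 layer 6 gene, and without replicate 1 it was 6. Of 8 thalamic genes with enough counts 4 had an excess CV of at least 25%. Tcf7l2 at 1.18, 0.66, 0.54 and 0.62 FPKM and Prkcd, a kinase, at 2.74, 1.53, 1.59 and 2.21 FPKM were highest in replicate 1, while Slc17a6 and Ntng1, an adhesion protein of axons, were lowest in replicate 4. Nr2f2, a factor of caudal cortex and of interneurons, had 1.13, 3.32, 2.84 and 0.9 FPKM, and Baiap3, a regulator of dense-core vesicle traffic, 0.96, 6.02, 2.05 and 3.25 FPKM. Which part of the cortex was taken is not given, and its role in these values was not tested.

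**Figure D5:**
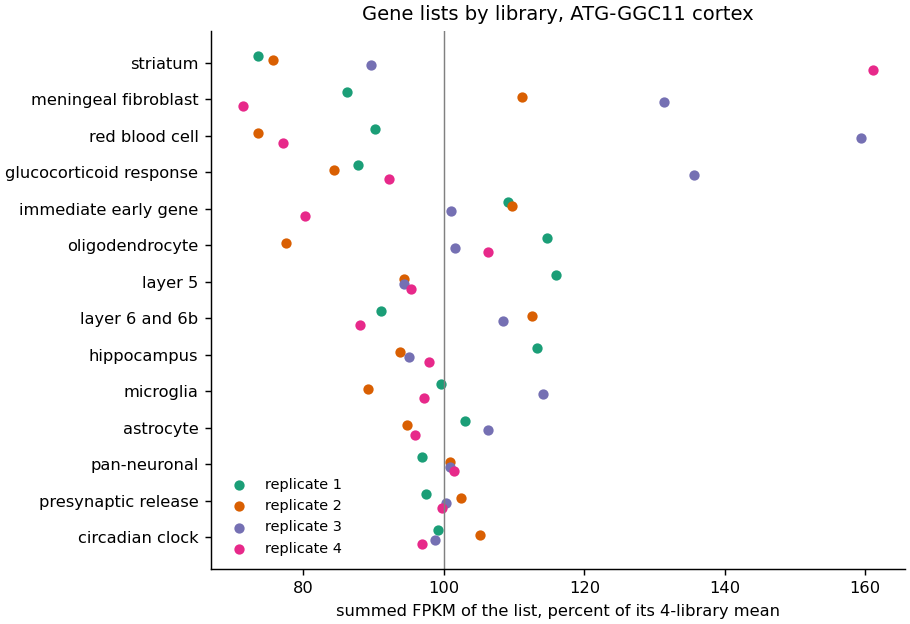
Summed FPKM of 14 gene lists in each library, as a percent of the list's mean over the 4 libraries. Striatal genes reach 161% in replicate 4, meningeal fibroblast genes 131% and red blood cell genes 159% in replicate 3. Ptgds holds 385.4 of the mean meningeal sum of 412.6 FPKM, and Hbb-bs 58 of the red blood cell sum of 86.7 FPKM. Pan-neuronal genes stay between 96.8% and 101.5% and presynaptic release genes between 97.5% and 102.5%.

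Among the main cells of the cortex, the pan-neuronal list moved less than the glial ones. The pan-neuronal sum was 96.8%, 101%, 101% and 101.5% of its mean in replicates 1 to 4. The astrocyte sum ranged from 94.8% in replicate 2 to 106% in replicate 3, and the microglia sum from 89.2% in replicate 2 to 114% in replicate 3. The oligodendrocyte sum ranged from 77.5% in replicate 2 to 115% in replicate 1, and 2 of its 12 genes, Ermn and Aspa, had an excess CV of at least 25%. None of the 12 pan-neuronal, 14 astrocyte and 14 microglia genes with at least 100 counts did, against 2.11% of all such genes. The median excess CV was 4.045% for pan-neuronal, 8.035% for astrocyte, 11.8% for microglia and 17.3% for oligodendrocyte genes. Over all such genes it was 5.28%. Sex was uniform as far as these genes show it, with the Y-linked Ddx3y at 15.1 ± 1.52 FPKM and the X-inactivation RNA Xist at 0.0125 ± 0.005 FPKM, the pattern of males.

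Mouse orthologs or relatives of genes whose human forms carry GGC repeats in related diseases ranged from 0.285 to 34.4 FPKM. Gipc1, an adaptor of membrane traffic, averaged 34.4 ± 1.54 FPKM, Rilpl1, a protein of the primary cilium, 24 ± 2.79 FPKM, and Lrp12 11.2 ± 0.751 FPKM. Fmr1, which controls translation at synapses, averaged 10.7 ± 0.732 FPKM, Abcd3 of peroxisomes 11 ± 0.299 FPKM and Notch2 1.9 ± 0.293 FPKM. Zfhx3 was the lowest at 0.285 ± 0.0597 FPKM. Of the 7 genes 6 passed 1 FPKM. None of the 6 with at least 100 counts had an excess CV of at least 25%, against 2.11% of all such genes. Their median excess CV was 5.97%, against 5.28% over all such genes. The sum was 88.3, 95.3, 95.1 and 95.3 FPKM, lowest in replicate 1.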

How the data were processed

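Poly(A) RNA of mouse cortex was fragmented, primed at random and amplified by PCR, per the labels' protocols. The authors deposited a table with a whole-number count and an FPKM value for each gene and library, per the file headers; their FPKM equals the counts divided by exonic length and library total within 0.005. The deposited exonic gene sizes, another kind of value, are lengths in bases. The submitters' processing notes name FastQC 0.10.1, cutadapt 1.9.1 and 2 builds, mm10 and GRCm39. The aligner, the read counter and how reads with several matches were treated are not given in the sources used here. Only the 4 ATG-GGC11 libraries entered the calculations, so no test between groups was made. The table does not name its build, and gene coordinates are those of the table. Promoters are from RefSeq (GRCm38.p6), and gene types from GENCODE vM21 by identifier, which matched 52083 of 55359 genes. Construct rows took at most 0.00714% of counts and were left out.

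Excess CV was computed from counts scaled by TMM (edgeR 4.0.16 in R 4.3.3), as the CV over the 4 libraries after the Poisson variance was subtracted, for genes with a mean of at least 100 counts. It was tested on simulated counts with known spread. With 4 libraries the value of a single gene is imprecise, and the binomial intervals and limits hold for counting error alone, as PCR copies could not be told from separate molecules. Named genes were the 30 highest outside the mitochondrial chromosome, the mitochondrial protein genes, the 10 highest non-coding genes, the highest, lowest and defining members of 67 gene lists, listed genes with an excess CV of at least 25%, the 20 genes with the highest excess CV, and the 10 with the lowest CV among those with at least 1000 counts. Genes named beyond that rule, such as the chromosome 1 copies and the genes with many pseudogenes, were chosen after their values were seen, and some genes that the rule names are not reported here. The libraries, lists and measures were chosen with earlier results of these data known, and 728 of 736 list genes were found in the table. Alternatives were other thresholds, TPM, other scalings, edgeR's tagwise estimate, shares of summed FPKM, and leaving out each library; the count of variable genes per list without each library was added after the data were examined.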

Additional observations from a re-analysis of the deposited data

Results flagged for a closer look

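Of 142 measures with a value in each of the 4 libraries (library measures, list sums and genes given by library), 21 had a library that stood apart from the other 3. Chance alone gives about 1 in 20, and many of the genes were named for their spread. No cause was tested for any of them.

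In replicate 4, 24212 genes had at least 1 count, below the 25291 or more of the others; its total was also the lowest. In the same library 6 striatal or forebrain genes were the highest by far, namely Penk at 188 FPKM, Drd1 at 15.5 FPKM, Tac1 at 21.4 FPKM, Pdyn at 19.8 FPKM, Six3 at 2.69 FPKM and Htr1b at 5.33 FPKM. Syt6 at 7.31 FPKM was also apart there, and so was Calm2 at 1128 FPKM, although its 4 values lay close together. Replicate 3 was apart for Cpe at 1007 FPKM, Mt2 at 105.7 FPKM and the summed glucocorticoid response list at 340.5 FPKM.

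Replicate 1 was apart for Prox1 at 4.28 FPKM, Fibcd1 at 5.22 FPKM and the summed layer 5 list at 105.5 FPKM, all as the highest library. It was the lowest for the summed pan-neuronal list at 1892 FPKM and the cell cycle list at 30.7 FPKM. The list of orthologs or relatives of GGC-repeat disease genes was also lowest there, at 88.3 FPKM. Replicate 2 was apart for Gm28438 at 116.5 FPKM, for the Pvalb class at 117 FPKM, as the lowest, and for the acetylcholine list at 87.2 FPKM, as the highest.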

How the results depend on the processing

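Genes detected in all 4 libraries numbered 18392 at 0.1 FPKM, 14547 at 0.5 FPKM, 7258 at 5 FPKM and 4371 at 10 FPKM in place of 12727 at 1 FPKM, 15939 at 1 TPM, and 12843 to 12892 when a library was left out. The share of the 100 most abundant genes was 34.8% of summed FPKM and 14.2% without mitochondrial genes, and 20.2% to 20.6% of counts with a library left out. The mitochondrial share was 6.71% with protein genes only and 23.35% of summed FPKM, and 7.86% to 8.3% with a library left out. The median excess CV was 5.7% and 4.66% with a mean of at least 20 and 1000 counts, 7.84% with edgeR's tagwise estimate, which is shrunken towards other genes, and 4.38% to 5.09% with a library left out. Genes with an excess CV of at least 25% numbered 892 and 25 with a mean of at least 20 and 1000 counts, 38 by edgeR's tagwise estimate, 454 and 53 at thresholds of 20% and 40%, and 216 to 289 with a library left out. Scaling by library totals or median ratios gave 243. Of 29 marker lists 23 had a median of at least 1 FPKM, and 22 or 23 with a library left out, when none of the medians moved by more than the spread between libraries. In TPM 26 lists passed and all 29 medians moved, that of the pan-neuronal list to 629.1. With members of at least 1 FPKM only, 13 of 27 medians moved, that of the Sst class to 60.3 in place of 5 FPKM. No paired analysis was possible because a single group was described. Depth limits genes of few counts: the 3 counts behind a limit equal 0.157 to 0.234 CPM in a library. The FPKM of short genes and of genes with near-identical copies are uncertain as well.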

Other observations

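Further lists covered energy supply, ion pumps, cell stress and the postsynaptic density. All 20 nuclear genes of oxidative phosphorylation passed 1 FPKM with a median of 73.7 FPKM. Cox8a, a cytochrome c oxidase subunit, averaged 388 ± 18.9 FPKM, and Atp5a1 of the ATP synthase 246 ± 5.29 FPKM. None had an excess CV of at least 25%. The nuclear list and the mitochondrially encoded list ran in different orders over the libraries, since 8 of the 13 mitochondrial protein genes were highest in replicate 1 and 19 of the 20 nuclear ones in replicate 3 or 4. Replicates 1 to 4 had 59964, 50515, 56132 and 49204 summed FPKM on the mitochondrial list, against 2200, 2234, 2393.5 and 2356 on the nuclear list. Replicate 3 was thus highest on the nuclear list and also high on the mitochondrial list. FPKM is divided by the library total, so the sums of both lists are not independent.

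Ion pumps had a median of 144 FPKM. None of its 9 genes had an excess CV of at least 25%. Among heat shock genes the constitutive Hspa8 averaged 205 ± 12.8 FPKM and the inducible Hspa1a 4.34 ± 0.646 FPKM, and 8 of the 11 genes were highest in replicate 4. Of 12 ER stress genes 10 passed 1 FPKM, with Hspa5, the main chaperone of the endoplasmic reticulum, at 73.1 ± 10.5 FPKM and Trib3 at 0.28 ± 0.142 FPKM. The ER stress list had a median excess CV of 13%, against 5.28% over all genes, and 9 of the 10 genes were lowest in replicate 1. Of the postsynaptic density, Dlg4, its central scaffold, averaged 54.5 ± 1.59 FPKM and Shank3 25.2 ± 0.469 FPKM, and 1 of 18 genes, Homer3, had an excess CV of at least 25%.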
